A study of Homo sapiens with 12 samples.

Results

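The 10 genes described here encode integrin subunits with which epithelial cells hold on to their matrix. They were chosen by symbol, as a fixed list of names, and comprise *ITGA2*, *ITGA3*, *ITGA5*, *ITGA6*, *ITGAV*, *ITGB1*, *ITGB4*, *ITGB5*, *ITGB6* and *ITGB8*. All 10 were found among the 23346 genes of the deposited table, and all 10 were among the 16236 genes that passed a filter on low values (a mean of at least 0.1 RPKM over all samples). SW1990 and CFPAC-1, a pair of long established lines from human adenocarcinoma of the pancreas, had been stained with GCTM-5, an antibody to a glycoprotein complex of the cell surface, and RNA of the sorted cells was sequenced. The 4 groups were GCTM-5 negative SW1990, GCTM-5 positive SW1990, GCTM-5 negative CFPAC-1 and GCTM-5 positive CFPAC-1 cells, with 3 samples in each and 12 samples in all. No genotype or treatment other than the line and the sorted population is named, and cells of all groups were cultured in serum, dissociated, stained and sorted alike. According to the labels, the gates took strongly positive and negative cells only, so cells of intermediate staining were not sampled. Each line is a single culture model. The samples of a group came from separate sorts, as the study's methods describe them, while neither the methods nor the labels say whether the sorted cells came from separate cultures. The p-values below therefore measure the spread between sorts, and not necessarily that between cultures.

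Values are RPKM, reads scaled to gene length and to the size of the library, so levels of different genes may be set side by side. Library totals, worked out from the RPKM values themselves, ranged from 9969697 reads in CFPAC-1 positive replicate 3 to 26159330 in CFPAC-1 positive replicate 1. At this depth the lowest value among the 10 genes, that of *ITGB6* in negative SW1990 cells, rested on 28 to 48 reads per library. The sorted cells were checked against marker lists. All 10 epithelial markers, among them *EPCAM* and *CDH1*, were detected in all 4 groups, and their summed level was 1745 to 2033 RPKM in negative and 5296 to 5515 RPKM in positive SW1990 cells. In CFPAC-1 the sums were 7552 to 8568 RPKM in negative and 7916 to 9887 RPKM in positive cells. In bulk RNA, fewer cells that express a gene and less of its RNA per cell cannot be told apart.

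Integrins are receptors made of an alpha and a beta subunit, and the pair decides which matrix protein is bound. The beta1 subunit joins with many alpha subunits, alpha6beta4 anchors epithelial cells to laminin through hemidesmosomes, and alpha v with beta5, beta6 or beta8 binds proteins that carry the RGD motif, among them vitronectin and the latency peptide of TGF-beta. Duct epithelium of the pancreas and adenocarcinomas that arise from it are known to carry laminin and collagen receptors, and beta6 is known as an epithelial subunit that rises in carcinoma.

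The promoters of 3 genes are shown because these genes had the largest changes between sorted populations. They are the 250 bases before an annotated start of transcription, from RefSeq (GRCh38.p14), written 5′ to 3′ on the strand of the gene. Capitals mark matches to CAGGTG or CAGGTA on either strand, the E-box letters known to be read by repressors of the ZEB and SNAI families. The window of *ITGB6* lies at chr2:160200273-160200522 on the minus strand, that of *ITGB8* at chr7:20330650-20330899 on the plus strand, and that of *ITGA5* at chr12:54419267-54419516 on the minus strand.
ITGB6: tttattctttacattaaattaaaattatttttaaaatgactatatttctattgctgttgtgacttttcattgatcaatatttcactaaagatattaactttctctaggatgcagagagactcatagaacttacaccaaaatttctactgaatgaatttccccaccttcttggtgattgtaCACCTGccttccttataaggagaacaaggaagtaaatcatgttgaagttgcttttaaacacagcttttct
ITGB8: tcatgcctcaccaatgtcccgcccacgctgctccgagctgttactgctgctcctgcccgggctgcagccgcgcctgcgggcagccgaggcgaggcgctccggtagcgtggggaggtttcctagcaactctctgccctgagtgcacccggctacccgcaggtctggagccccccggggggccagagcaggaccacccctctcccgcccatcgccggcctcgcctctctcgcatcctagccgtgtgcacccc
ITGA5: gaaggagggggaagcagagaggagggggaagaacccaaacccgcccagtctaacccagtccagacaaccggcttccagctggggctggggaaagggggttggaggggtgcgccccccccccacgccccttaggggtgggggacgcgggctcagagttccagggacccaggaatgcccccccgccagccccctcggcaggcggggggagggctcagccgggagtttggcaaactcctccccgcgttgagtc
The *ITGB6* window holds 1 match, CACCTG, whose first base is 70 bases before the start, and the other windows shown hold none. In all, 8 of the 10 genes had a window, 13 windows together, and *ITGA6* and *ITGB5* were the other genes with a match. Over all 35116 promoter windows of at most 250 bases, 17.5% held CAGGTG, 7.99% held CAGGTA and 23.8% held either. These shares are per window, whereas genes with a match are counted above, so the figures are not directly comparable. A match in these letters is a description of the sequence only.

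*ITGA3* and *ITGB1*, the subunits of the laminin receptor alpha3beta1, and *ITGA6* and *ITGB4*, the subunits of alpha6beta4, were the 4 highest of the 10 genes in all 4 groups. Together, the 10 genes summed to 649 ± 35.2 RPKM (SD, n = 3, as for all values below) in negative and 603 ± 31.9 RPKM in positive SW1990 cells. In CFPAC-1 the sum was 1228 ± 35.9 RPKM without and 966 ± 58.2 RPKM with the antigen. *ITGA3* led in SW1990, with 29.2% of the summed level in negative and 31.7% in positive cells, and *ITGB1* led in CFPAC-1, with 35.8% and 38.8%. At the other end, *ITGB6* was the lowest of the 10 in negative SW1990 cells (0.130% of the sum), *ITGB8* in positive SW1990 cells (0.400%) and *ITGA5* in both CFPAC-1 populations (0.296% of the sum when negative and 0.719% when positive).

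**Figure D1:**
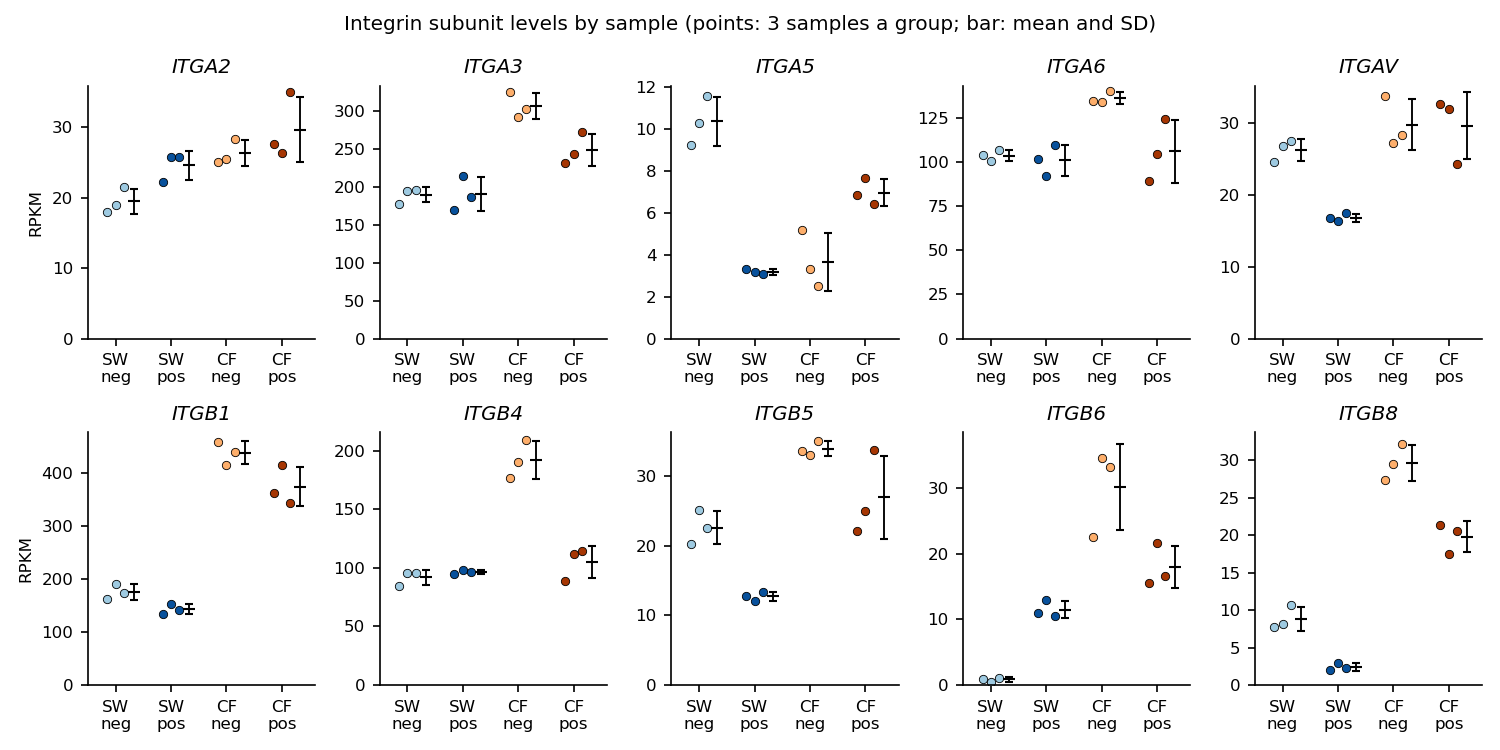
Level of each of the 10 integrin subunits in RPKM (linear axes from 0, one scale per gene) in GCTM-5 negative (neg) and positive (pos) SW1990 (SW) and CFPAC-1 (CF) cells. Points are the 3 samples of a group and bars their mean and SD. ITGB6 is near 0 in negative SW1990 cells (0.842 RPKM) and at 11.5 to 30.1 RPKM, as group means, in the other groups, while ITGB8 is lowest in positive SW1990 cells (2.41 RPKM).

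GCTM-5 positive and negative cells differed in integrin expression in each line, but the genes called were not all the same, and *ITGB6* and *ITGA5* moved in opposite directions. A gene called in a single line need not differ between the lines. The direct test of that difference, given below, called 5 of the 10. In SW1990, *ITGB6* rose 12.8-fold in positive cells, while *ITGB8*, *ITGA5*, *ITGB5*, *ITGAV* and *ITGB1* fell. In CFPAC-1, *ITGA5* rose 1.96-fold, and *ITGB4*, *ITGB6*, *ITGB8*, *ITGA6* and *ITGA3* fell. The test was limma on log2(RPKM + 0.1), fitted to 16236 genes in all 12 samples with 2-sided p-values adjusted by the Benjamini-Hochberg method, and a gene was called at an adjusted p under 0.05. In SW1990, 6 of the 10 genes were called (1 higher and 5 lower), against 28.2% of all genes tested, of which 11.3% were higher and 16.9% lower. In CFPAC-1, 6 of the 10 were called as well (1 higher and 5 lower), against 36.5% of all genes, 22.3% higher and 14.2% lower. Sample ranges of positive and negative cells did not overlap for 7 of the 10 genes in SW1990, against 43.3% of all genes, and for 7 of the 10 in CFPAC-1, against 48.5%. The median log2 fold change of the 10 genes was -0.17 in SW1990 and -0.33 in CFPAC-1, beside -0.04 and 0.05 for all genes tested.

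The count of 6 in CFPAC-1 depended on single libraries and on the settings of the fit. Without CFPAC-1 negative replicate 3 it dropped to 2 genes, against 2777 higher and 1588 lower of all 16236 genes. Without CFPAC-1 positive replicate 1 it was 3 genes, against 2851 higher and 1664 lower. With each line fitted alone it was 1 higher and 3 lower, against 2938 and 1885. It was also 1 and 3 with no intensity trend (3474 and 2204) and with no filter on low values (3288 and 2027 of 23346 genes). At the thresholds of over 2-fold and an unadjusted p under 0.01 none of the 10 was called in CFPAC-1, against 9.78% of all genes. In SW1990, 3 of the 10 (*ITGB6*, *ITGB8* and *ITGA5*) passed those thresholds, against 12.1% of all genes. At an unadjusted p under 0.05, 2 of the 10 were higher and 5 lower in SW1990, and 1 was higher and 7 lower in CFPAC-1. No share over all genes was taken at this cut, so these counts cannot be set against one. Voom on recovered reads called 7 in CFPAC-1 (1 higher and 6 lower), against 3725 higher and 2491 lower of all 16236 genes. Scaling of the libraries also bore on CFPAC-1. Centring each sample on its median turned the balance over all genes in CFPAC-1 from 3622 higher and 2307 lower to 2795 higher and 3056 lower, and quantile normalisation gave 2996 and 2992. Among the 10 genes, the split with centring was 2 higher and 4 lower in SW1990, against 2084 higher and 2399 lower of all genes there. In CFPAC-1 it was 1 higher and 7 lower.

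**Figure D2:**
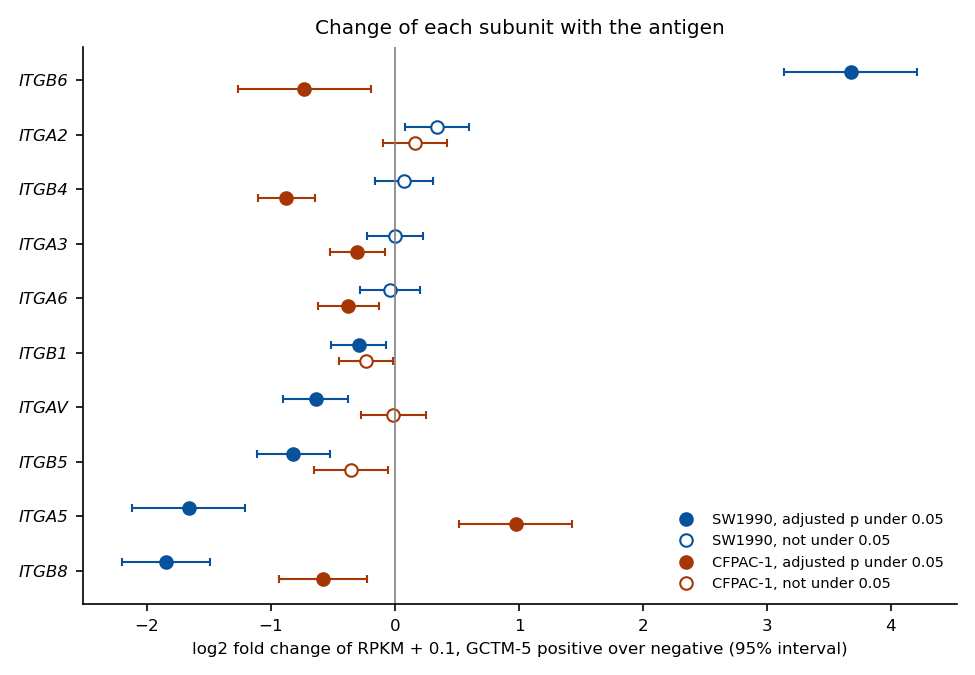
Log2 fold change of RPKM + 0.1 between GCTM-5 positive and negative cells for each of the 10 integrin subunits, with 95% intervals from limma, in SW1990 (blue) and CFPAC-1 (brown). Filled circles have an adjusted p under 0.05. ITGB6 stands at 3.68 in SW1990 and -0.73 in CFPAC-1, and ITGA5 at -1.67 and 0.97.

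*ITGB6*, which encodes the beta6 subunit (chromosome 2, 160956178 to 161056824, minus strand, GRCh37), showed the largest change of the 10 genes in SW1990. Its levels were 0.893, 0.502 and 1.13 RPKM in negative SW1990 cells and 10.99, 12.95 and 10.53 RPKM in positive ones. The 3 positive samples lay far above the 3 negative ones, with 447 to 527 reads per library behind them. The log2 fold change was 3.68 (SE 0.25, 95% interval 3.14 to 4.21, adjusted p = 6.79e-07). In CFPAC-1 the levels were 22.6, 34.5 and 33.2 RPKM in negative cells and 15.6, 21.6 and 16.7 RPKM in positive cells. There the positive samples were the lower ones, without overlap, and the log2 fold change was -0.73 (SE 0.25, adjusted p = 0.0359). This fall in CFPAC-1 was no longer called without CFPAC-1 negative replicate 2 (adjusted p = 0.124), CFPAC-1 negative replicate 3 (0.116), CFPAC-1 positive replicate 1 (0.113) or CFPAC-1 positive replicate 3 (0.0847), nor with a pseudocount of 0.01 (0.0506), no filter on low values (0.0904) or no intensity trend (0.0514). The order of the groups was CFPAC-1 negative, CFPAC-1 positive, SW1990 positive and SW1990 negative, and no neighbours in this order overlapped. An annotated long noncoding RNA gene, ENSG00000285155, shares 966 exonic bases with *ITGB6* on the same strand, and reads from those bases cannot be assigned to either gene. Antisense genes share 48 to 401 exonic bases each with *ITGA5*, *ITGA6*, *ITGAV*, *ITGB1* and *ITGB8*, and whether strand was used in counting is not given in the sources used here.

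*ITGB8*, which encodes the beta8 subunit of the receptor alpha v beta8 (chromosome 7, 20370325 to 20455377, plus strand), went the other way in SW1990. Negative SW1990 cells had 7.71, 8.20 and 10.7 RPKM and positive cells 1.95, 2.98 and 2.30 RPKM. All positive samples were below all negative ones, a fall by 1.84 on the log2 scale (SE 0.16, 3.59-fold, adjusted p = 5.70e-06). In CFPAC-1, *ITGB8* stood at 27.4, 29.5 and 32.2 RPKM in negative cells and at 21.3, 17.5 and 20.6 RPKM in positive cells. It was lower in all positive samples there too, with a log2 fold change of -0.58 (SE 0.16, adjusted p = 0.0155), a call that ended without CFPAC-1 negative replicate 3 (adjusted p = 0.0632) or CFPAC-1 positive replicate 2 (0.0537). Levels were highest in CFPAC-1 negative cells, followed by CFPAC-1 positive, SW1990 negative and SW1990 positive cells, with no overlap between neighbours.

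*ITGB5* encodes the beta5 subunit of the vitronectin receptor alpha v beta5 (chromosome 3, 124480795 to 124620265, minus strand). In SW1990 it was at 20.3, 25.1 and 22.5 RPKM in negative and 12.86, 12.02 and 13.38 RPKM in positive cells. The groups did not overlap and the log2 fold change was -0.82 (SE 0.14, adjusted p = 0.000716). CFPAC-1 cells had 33.6, 33.1 and 35.2 RPKM when negative and 22.2, 25.0 and 33.7 RPKM when positive. Replicate 3 of the positive cells lay among the negative samples, and the log2 fold change of -0.35 (95% interval -0.65 to -0.06) was not called (adjusted p = 0.0607). Without that library it was called (adjusted p = 0.00237), as it was with centring, quantile normalisation and voom (0.0228 to 0.0318).

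*ITGAV* encodes the alpha v subunit that joins with these beta subunits (chromosome 2, 187454737 to 187545628, plus strand). Its levels in SW1990 were 24.5, 26.8 and 27.5 RPKM in negative and 16.7, 16.3 and 17.4 RPKM in positive cells, again without overlap. The fall by 0.64 on the log2 scale (SE 0.12) had an adjusted p of 0.00173. In CFPAC-1, negative cells had 33.8, 27.2 and 28.3 RPKM and positive cells 32.7, 31.9 and 24.3 RPKM. These ranges overlapped, with a log2 fold change of -0.01 and a 95% interval from -0.28 to 0.25 (adjusted p = 0.953). Positive SW1990 cells were the only group set apart in level from the other three, which overlapped as neighbours.

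The beta subunits known to join alpha v changed in their proportions as well as their levels. To set them side by side, *ITGB3*, the beta3 subunit and not one of the 10 genes, was added, and the RPKM of *ITGB3*, *ITGB5*, *ITGB6* and *ITGB8* in a sample was taken as 100% (*ITGB1*, which joins many other alpha subunits, was left aside). This sum was composed after the values were seen and was not tested. In negative SW1990 cells, *ITGB5* made up 63.3 ± 5.11% of the sum, *ITGB8* 24.6 ± 2.67%, *ITGB3* 9.75 ± 1.70% and *ITGB6* 2.36 ± 0.863%. In positive SW1990 cells, *ITGB5* made up 47.6 ± 4.33%, *ITGB6* 42.7 ± 3.09%, *ITGB8* 8.93 ± 1.54% and *ITGB3* 0.684 ± 0.285%. *ITGB6* was thus below *ITGB8* in all 3 negative samples and above it in all 3 positive ones, and in positive replicate 2 it was also above *ITGB5* (46.0% and 42.7%). In negative CFPAC-1 cells the mean shares lay close together, at 23.8 ± 1.95% for *ITGB8*, 24.2 ± 5.59% for *ITGB6*, 24.6 ± 7.88% for *ITGB3* and 27.3 ± 0.603% for *ITGB5*. The samples were less alike, and in replicate 1 *ITGB3* had 33.7% and *ITGB6* 17.9%. In positive CFPAC-1 cells *ITGB3* dropped to 8.50 ± 2.58%, while *ITGB5* had 37.8 ± 4.97%, *ITGB8* 28.3 ± 5.02% and *ITGB6* 25.4 ± 4.23%. The summed level was 35.9 ± 3.47 RPKM in negative and 26.8 ± 1.19 RPKM in positive SW1990 cells. In CFPAC-1 it was 124 ± 2.85 RPKM in the negative group and 70.8 ± 7.36 RPKM in the positive group. Within a sample, *ITGB6* stood at 0.0943 ± 0.0291 times the level of *ITGB8* in negative SW1990 cells and at 4.86 ± 0.686 times in positive ones. In CFPAC-1 this ratio was 1.01 ± 0.174 in negative and 0.925 ± 0.270 in positive cells. Such ratios within a sample do not depend on its library scaling.

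**Figure D3:**
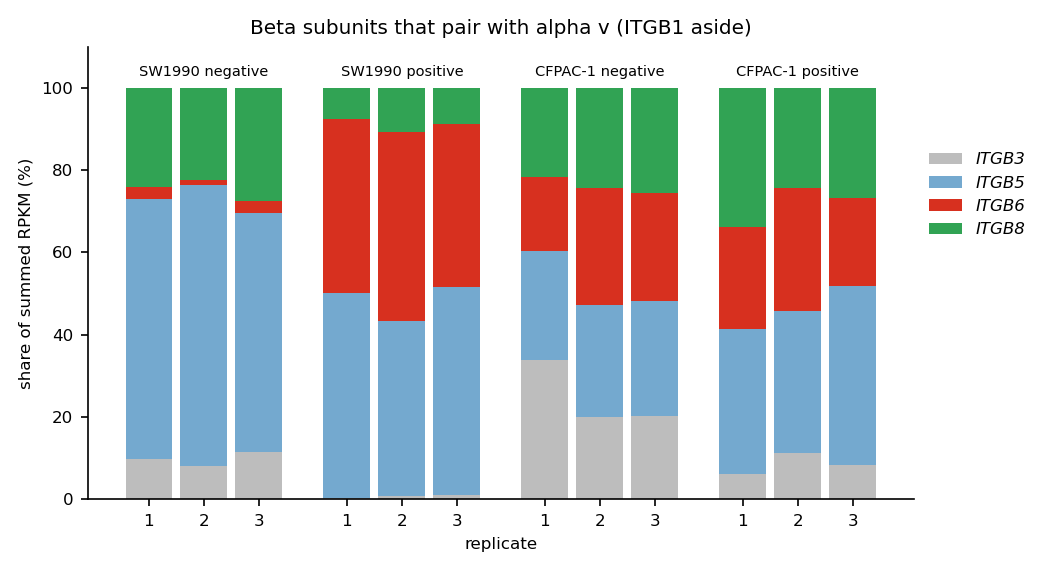
Share of each beta subunit (ITGB3, ITGB5, ITGB6 and ITGB8) in their summed RPKM, in percent, one stacked bar per sample and 3 samples per group. ITGB6 (red) takes 1.36% to 2.92% in negative and 39.8% to 46.0% in positive SW1990 cells, and 17.9% to 29.9% in CFPAC-1 cells.

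*ITGA5*, which encodes the alpha5 subunit of the fibronectin receptor alpha5beta1 (chromosome 12, 54789045 to 54813050, minus strand), moved in opposite directions in the lines. Negative SW1990 cells had 9.22, 10.2 and 11.6 RPKM and positive cells 3.32, 3.16 and 3.05 RPKM. The positive samples were all lower, with a log2 fold change of -1.67 (SE 0.21, adjusted p = 8.81e-05). In CFPAC-1 the negative cells had 5.15, 3.29 and 2.48 RPKM and the positive cells 6.82, 7.63 and 6.40 RPKM. Here the positive samples were all higher, by 0.97 on the log2 scale (SE 0.21, adjusted p = 0.00391). Relative to *ITGB1* in the same sample, *ITGA5* was at 0.0590 ± 0.00684 in negative and 0.0223 ± 0.00220 in positive SW1990 cells. In CFPAC-1 this ratio was 0.00824 ± 0.00280 without and 0.0186 ± 0.000201 with the antigen. The lowest levels, of positive SW1990 and negative CFPAC-1 cells, overlapped, whereas the other neighbours in the order of groups did not.

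The common beta1 subunit is encoded by *ITGB1* (chromosome 10, 33176201 to 33294720, minus strand). SW1990 cells had 162, 192 and 173 RPKM when negative and 134, 154 and 142 RPKM when positive. The ranges did not overlap, and the log2 fold change was -0.29 (SE 0.10, adjusted p = 0.0465). That call ended when any one of SW1990 negative replicates 2 and 3, SW1990 positive replicates 1 and 3, CFPAC-1 negative replicates 1, 2 and 3 or CFPAC-1 positive replicate 1 was left out (adjusted p 0.0536 to 0.157). It also ended with centring (adjusted p = 0.155), no filter on low values (0.0623), each line fitted alone (0.0644), no intensity trend (0.0691) and a replicate block (0.0584). In CFPAC-1 the levels were 460.1, 417 and 441 RPKM in negative and 363, 416 and 345 RPKM in positive cells. Their log2 fold change of -0.23 (95% interval -0.45 to -0.01) was not called (adjusted p = 0.0897), except with centring (0.0466) or without CFPAC-1 positive replicate 2 (0.0398). A processed pseudogene of *ITGB1* is known, and how reads that match both were counted is not given in the sources used here.

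*ITGA3* encodes the alpha3 subunit, which with beta1 binds laminins (chromosome 17, 48133332 to 48167845, plus strand). In SW1990 its levels were 178, 195 and 197 RPKM in negative and 170.3, 215 and 187 RPKM in positive cells, overlapping ranges with a log2 fold change of 0.0023 (95% interval -0.22 to 0.23). In CFPAC-1 they were 325, 293 and 302 RPKM in negative and 231, 243 and 273 RPKM in positive cells. All positive CFPAC-1 samples were lower, with a log2 fold change of -0.30 (SE 0.10, adjusted p = 0.0373). The call in CFPAC-1 ended without SW1990 positive replicate 3, any of the CFPAC-1 negative replicates, or CFPAC-1 positive replicate 1 or 2 (adjusted p 0.0539 to 0.122). It ended as well with no filter on low values (adjusted p = 0.0546), each line fitted alone (0.0596) and no intensity trend (0.0565).

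*ITGA2* encodes the alpha2 subunit of the collagen receptor alpha2beta1 (chromosome 5, 52285170 to 52390609, plus strand). Negative SW1990 cells had 18.0, 18.9 and 21.5 RPKM and positive cells 22.2, 25.8 and 25.8 RPKM. Positive samples were all higher, but the log2 fold change of 0.34 (SE 0.12, 95% interval 0.08 to 0.59) had an adjusted p of 0.0533. It was called when SW1990 negative replicate 3 (adjusted p = 0.0452), SW1990 positive replicate 1 (0.0418), CFPAC-1 positive replicate 2 (0.0465) or CFPAC-1 positive replicate 3 (0.0161) was left out, and with centring (0.0286), voom (0.0385) or a replicate block (0.0252). In CFPAC-1, 25.1, 25.5 and 28.4 RPKM in negative cells overlapped with 27.7, 26.3 and 35.0 RPKM in positive cells (log2 fold change 0.16, 95% interval -0.10 to 0.42, adjusted p = 0.310).

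The hemidesmosomal receptor is made of the products of *ITGA6* (chromosome 2, 173292082 to 173371187, plus strand) and *ITGB4* (chromosome 17, 73717408 to 73753899, plus strand). In SW1990 *ITGB4* was at 84.4, 96.0 and 95.3 RPKM in negative and 94.6, 98.4 and 96.4 RPKM in positive cells, and the ranges overlapped (log2 fold change 0.07, 95% interval -0.16 to 0.30, adjusted p = 0.671). In CFPAC-1 it was at 177, 190.2 and 209 RPKM in negative and 88.9, 112 and 114 RPKM in positive cells. All positive CFPAC-1 samples were lower, 1.84-fold, with a log2 fold change of -0.88 (SE 0.11, adjusted p = 0.000132). This was the largest fall among the 10 genes in CFPAC-1, and it brought *ITGB4* to the range of the SW1990 groups, with which positive CFPAC-1 cells overlapped. *ITGA6* had 104, 100.4 and 107 RPKM in negative and 102, 92.0 and 109 RPKM in positive SW1990 cells (log2 fold change -0.04, 95% interval -0.28 to 0.20, adjusted p = 0.834). In CFPAC-1, *ITGA6* was at 135, 134 and 140.5 RPKM in negative and 89.2, 105 and 125 RPKM in positive cells. All positive samples were lower there (log2 fold change -0.37, SE 0.11, adjusted p = 0.0210), a call that ended without CFPAC-1 negative replicate 3 (adjusted p = 0.0694) or CFPAC-1 positive replicate 1 (0.0816), or with each line fitted alone (0.0763). Within a sample, *ITGB4* stood at 1.41 ± 0.0905 times *ITGA6* in negative CFPAC-1 cells, and at 0.887 ± 0.0725, 0.961 ± 0.0979 and 0.994 ± 0.0763 times *ITGA6* in negative SW1990, positive SW1990 and positive CFPAC-1 cells.

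Whether the change with the antigen differed between the lines was tested as the change in SW1990 minus the change in CFPAC-1. It did for 5 of the 10 genes (2 higher and 3 lower in SW1990 relative to CFPAC-1), against 26.9% of all genes tested, 9.16% higher and 17.8% lower. For *ITGB6* the difference was 4.41 on the log2 scale (SE 0.35, adjusted p = 8.30e-06) and for *ITGA5* it was -2.64 (SE 0.30, adjusted p = 8.04e-05), both of which had moved in opposite directions. *ITGB8*, which fell in both lines, fell more in SW1990 (difference -1.26, SE 0.23, adjusted p = 0.00189). *ITGB4* (0.95, SE 0.15, adjusted p = 0.000769) and *ITGAV* (-0.63, SE 0.17, adjusted p = 0.0178) had changed in a single line each, and with samples centred on their medians *ITGAV* was no longer called (adjusted p = 0.0671). For *ITGB5* the difference of -0.47 (95% interval -0.89 to -0.05) was not called (adjusted p = 0.0943), though it was without CFPAC-1 positive replicate 1 (adjusted p = 0.0339). The remaining differences were 0.17 for *ITGA2*, 0.31 for *ITGA3*, 0.33 for *ITGA6* and -0.06 for *ITGB1* (adjusted p 0.140 to 0.788), and *ITGA6* was called without CFPAC-1 positive replicate 3 (adjusted p = 0.0174). Centring moved the median of this difference over all genes from -0.15 to 0.0008.

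Between the lines, most of the 10 genes were lower in SW1990. Among negative cells, 9 of the 10 differed (1 higher and 8 lower in SW1990), against 68.9% of all genes, 40.7% higher and 28.2% lower. *ITGA5* was the one that was higher in SW1990 (log2 fold change 1.54, SE 0.21, adjusted p = 3.52e-05). *ITGB6* was 32.9-fold lower in negative SW1990 than in negative CFPAC-1 cells (log2 fold change -5.04, SE 0.25, adjusted p = 5.72e-09), followed by *ITGB8* (-1.74, SE 0.16), *ITGB1* (-1.32, SE 0.10) and *ITGB4* (-1.06, SE 0.11). *ITGA3*, *ITGB5*, *ITGA2* and *ITGA6* were lower by 0.69 to 0.40, and *ITGAV* was not called (-0.18, adjusted p = 0.214). Centring moved the median over all genes in this comparison from 0.19 to 0.01, and with it, as with quantile normalisation, *ITGAV* was called as lower (adjusted p = 0.0201 and 0.0459). Among positive cells, 7 of the 10 genes were lower in SW1990 and none was higher, against 62.3% of all genes called, 32.9% higher and 29.3% lower. At an unadjusted p under 0.05, 8 were lower and 0 higher, a cut at which no share over all genes was taken. Voom on recovered reads called 7 lower and 0 higher, against 4796 lower and 5374 higher of all 16236 genes. The largest differences were those of *ITGB8* (log2 fold change -3.00, SE 0.16, adjusted p = 2.03e-08) and *ITGB1* (-1.39, SE 0.10, adjusted p = 2.45e-07). *ITGA5*, which was higher in SW1990 among negative cells, was lower among positive cells (-1.10, SE 0.21, adjusted p = 0.000633). The gap in *ITGB6* was -0.63 (SE 0.25, adjusted p = 0.0413), and it was not called without SW1990 positive replicate 1 or 3, CFPAC-1 negative replicate 3 or CFPAC-1 positive replicate 2 or 3 (adjusted p 0.0516 to 0.144), nor with a pseudocount of 0.01 (0.0563), no filter on low values (0.0992) or no intensity trend (0.0569). *ITGA2*, *ITGA6* and *ITGB4* were not called (log2 fold changes -0.26, -0.06 and -0.11), though *ITGA2* was without CFPAC-1 positive replicate 2 (adjusted p = 0.0378), with centring (0.0408) and with quantile normalisation (0.0329). These comparisons use the same samples as those of positive with negative cells, so their values are not separate evidence.

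Among further integrin genes, more were lower than higher in positive cells of both lines, as over all genes in SW1990 but not in CFPAC-1. Of 16 further subunits, 10 passed the filter on low values, and in SW1990 1 of them was higher and 5 were lower in positive cells (median log2 fold change -0.79), against 11.3% higher and 16.9% lower over all genes. *ITGB3*, the beta3 subunit, fell from 3.51 ± 0.810 to 0.185 ± 0.0788 RPKM (log2 fold change -3.68, SE 0.32, adjusted p = 4.76e-06). *ITGA11*, a collagen receptor subunit, had 21 to 61 reads in negative and 0 in positive SW1990 libraries, and was at least 14.05-fold lower against a floor of 3 reads per library, a bound for counting error only. *ITGAX*, a leukocyte subunit, was lower at under 1 RPKM in both populations (log2 fold change -1.27, adjusted p = 0.0402), and *ITGB2*, the beta subunit of leukocyte integrins, was higher, at 9.16 ± 1.27 and 16.2 ± 2.57 RPKM (log2 fold change 0.81, adjusted p = 0.000529). In CFPAC-1, 0 were higher and 6 lower by limma (median -0.78, or -0.83 with genes at the floor at their bound), against 22.3% higher and 14.2% lower over all genes, and at an unadjusted p under 0.05 the counts were 0 and 6. *ITGB3* fell there from 30.7 ± 10.2 to 6.09 ± 2.15 RPKM (log2 fold change -2.33, adjusted p = 0.000254) and *ITGA1*, a collagen and laminin receptor subunit, from 17.8 ± 0.892 to 6.55 ± 1.62 RPKM (-1.45, adjusted p = 0.000363). *ITGAX* had no reads in positive CFPAC-1 cells and was at least 3.65-fold lower.

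Of 22 genes for ligands of these receptors 21 were tested. In SW1990, 4 were higher and 12 lower in positive cells (median log2 fold change -0.62), against 28.2% of all genes called. *LAMA3* and *LAMB3*, which encode laminin chains, were among those that rose. *LAMA3* went from 2.88 ± 0.153 to 17.1 ± 3.70 RPKM (log2 fold change 2.51, adjusted p = 5.70e-06) and *LAMB3* from 31.3 ± 2.41 to 75.1 ± 7.03 RPKM (1.26, adjusted p = 0.000480). *SPP1*, which encodes osteopontin, a ligand of alpha v integrins, fell from 44.6 ± 16.5 to 2.98 ± 1.27 RPKM (-3.88, adjusted p = 6.61e-06). *VTN*, which encodes vitronectin, fell by 1.92 and *TGFB1*, whose latent product alpha v beta6 and alpha v beta8 are known to activate, by 1.36 on the log2 scale (adjusted p = 0.000334 and 1.21e-05). *VTN* rested on few reads, 32 to 43 per library in negative and 5 to 8 in positive SW1990 cells. In CFPAC-1, 1 of the 21 was higher and 5 were lower (median -0.21, or -0.18 with genes at the floor at their bound), a share below the 36.5% called over all genes. *NPNT*, which encodes nephronectin, rose from 0.183 ± 0.103 to 1.71 ± 0.753 RPKM (log2 fold change 2.64, adjusted p = 0.000310). *SPP1* (-1.35, adjusted p = 0.0104), *TNC*, which encodes tenascin-C (-1.07, adjusted p = 0.0399), and *FN1*, which encodes fibronectin (-0.88, adjusted p = 0.0300), had the largest falls. *LAMA3* and *LAMB3* were not called in CFPAC-1, where their log2 fold changes were 0.30 and -0.40.

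Another list held 31 genes for activators and adaptors of integrins and for other proteins that act on integrins or adhesions. Of these, 4 were higher and 8 lower in positive SW1990 cells (median log2 fold change -0.18). In positive CFPAC-1 cells 4 were higher and 5 lower (median 0.07). Over all genes 28.2% were called in SW1990 and 36.5% in CFPAC-1, so the share of these genes called was below that of all genes in CFPAC-1. In SW1990, *TNS4* (0.58, adjusted p = 0.0133) and *ACTN4* (0.42, adjusted p = 0.00134) were among those that rose on the log2 scale, and *TNS1* (-2.13, adjusted p = 4.88e-05), *LIMS2* (-1.97, adjusted p = 0.000202) and *FERMT2*, the integrin activator kindlin-2 (-1.19, adjusted p = 6.97e-05), the largest falls. In CFPAC-1, *ITGB1BP1*, whose product binds the beta1 tail (0.83, adjusted p = 0.000618), *FLNA*, which encodes filamin A (0.83, adjusted p = 0.00174), and *TNS4* (0.64, adjusted p = 0.00712) rose most, while *BCAR1*, *ZYX* and *ACTN4* fell by 0.51, 0.38 and 0.37 (adjusted p = 0.00763, 0.0174 and 0.00317). Of 10 hemidesmosome genes and lateral partners such as tetraspanins, 2 were higher and 2 lower in SW1990 (median -0.13), against 28.2% of all genes called. *COL17A1*, the hemidesmosomal collagen XVII, rose by 1.63 and *PLEC*, which encodes plectin, by 0.67, whereas the tetraspanin genes *TSPAN8* and *CD81* fell by 2.15 and by 0.25 on the log2 scale (adjusted p 0.00258 to 0.0374). *TSPAN8* rested on few reads, 17 to 69 per library in negative and 2 to 8 in positive SW1990 cells. In CFPAC-1, 0 of these were higher and 3 lower by limma (median -0.27), against 36.5% of all genes called, at 0 and 4 under an unadjusted p of 0.05. They were *CD47*, which encodes a thrombospondin receptor known to associate with integrins (-0.79, adjusted p = 0.000604), and the tetraspanin genes *CD151* (-0.35, adjusted p = 0.0290) and *CD81* (-0.30, adjusted p = 0.0122). The pathway lists were drawn up with earlier results of these data known, so their counts are a description.

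**Figure D4:**
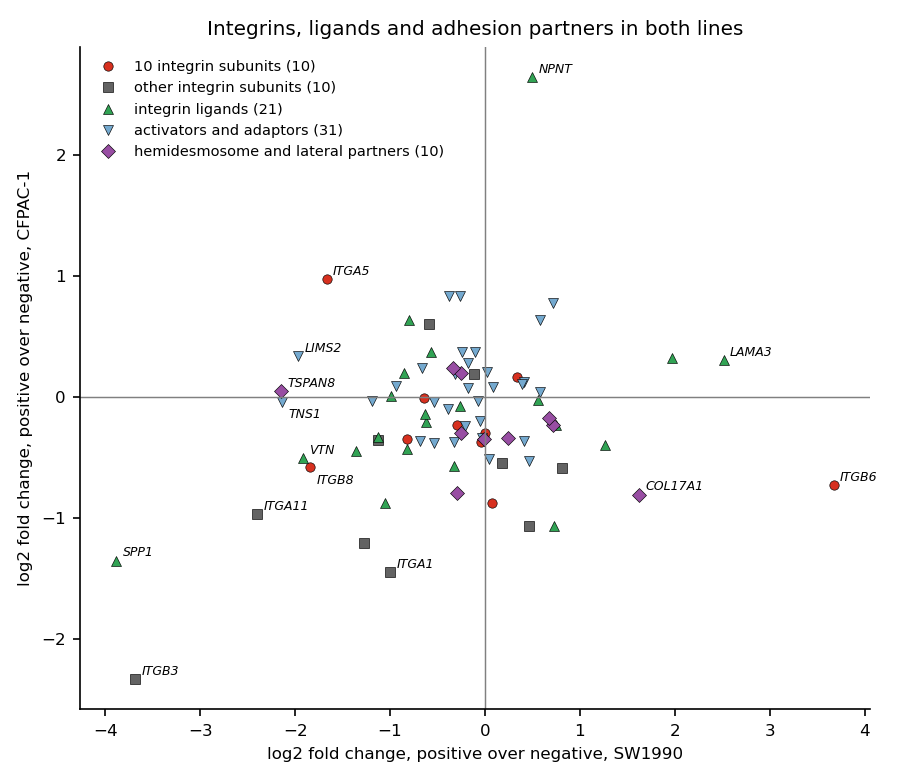
Log2 fold change between GCTM-5 positive and negative cells in SW1990 (horizontal) and CFPAC-1 (vertical), one point per gene tested. Shown are the 10 integrin subunits, 10 other integrin subunits, 21 ligands, 31 activators, adaptors and related genes, and 10 hemidesmosome genes and lateral partners. ITGB6 is at the far right below the horizontal line, ITGA5 at the upper left, and ITGB3 and SPP1 at the lower left; points of genes with reads near 0, such as ITGA11, depend on the 0.1 added to RPKM.

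Markers of epithelial and mesenchymal state moved with the antigen in SW1990, beside the integrins. There, 9 of 10 epithelial markers were higher and 0 lower in positive cells (at an unadjusted p under 0.05 also 9 and 0, median log2 fold change 2.30), for example *EPCAM* at 21.7 ± 4.92 and 176 ± 14.5 RPKM. Over all genes in SW1990, 11.3% were higher and 16.9% lower. Of 8 mesenchymal state markers 7 were tested, and 6 were lower and 0 higher (also 6 and 0 at an unadjusted p under 0.05), their sum going from 1263 to 1436 RPKM in negative to 191 to 388 RPKM in positive cells. *TWIST1* was at 0 in all samples. In CFPAC-1, 3 of the 10 epithelial markers were higher and 2 lower, not far from the 22.3% and 14.2% over all genes. Of the mesenchymal state markers, 4 were lower there and 0 higher (5 and 0 at an unadjusted p under 0.05), with sums of 554 to 749 RPKM without and 425 to 597 RPKM with the antigen. The 10 fibroblast markers summed to 14.2 to 24.9 RPKM in negative and 4.96 to 6.40 RPKM in positive SW1990 cells and to 2.92 to 3.51 RPKM over the CFPAC-1 samples. Of 4 tested, 3 fell in SW1990, against 16.9% of all genes lower. The highest of the list in negative SW1990 cells was *LUM*, at 13.2 ± 5.28 RPKM, beside 2.43 ± 0.603 RPKM in positive ones. *THY1* was at 0 in all 4 groups and *COL3A1* and *DCN* in all but negative SW1990 cells. The 8 leukocyte markers summed to 35.7 to 50.0 and 16.3 to 34.9 RPKM in negative and positive SW1990 cells and, in CFPAC-1, to 179 to 210 RPKM without and 163 to 228 RPKM with the antigen, where *CD68*, of which epithelial cells can also have transcripts, made up most. Of 3 tested, 2 fell in SW1990 and 1 in CFPAC-1, against 16.9% and 14.2% of all genes lower, and *MS4A1* was at 0 in all 4 groups. The 6 endothelial markers summed to 14.9 to 18.9 RPKM in negative SW1990 cells, nearly all of it *CDH5* (15.6 ± 1.82 RPKM), and to 1.47 to 2.05 RPKM in positive ones, with at most 1.49 RPKM in CFPAC-1 samples. The part of these markers in the integrin differences was not tested.

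For each of the 10 genes, the most similar gene across samples was taken by Pearson correlation of log2(RPKM + 0.1) over the 12 samples, among 13267 genes with a mean of at least 1 RPKM. These correlations describe 12 points that share 2 lines and carry no test. The closest genes were *B3GNT3* for *ITGB6* (r = 0.99), *SHISA2* for *ITGB8* (0.99), *LRIG1* for *ITGB5* (0.98), *PGRMC2* for *ITGAV* (0.98) and *PAPPA* for *ITGA5* (0.96). For the others they were *CHURC1* for *ITGB1* (r = 0.996), *CMTM8* for *ITGA3* (0.98), *C10orf95* for *ITGA2* (0.97), *KCNN4* for *ITGA6* (0.94) and *SLC35F5* for *ITGB4* (0.98).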

How the data were processed

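RNA-seq of 12 samples, 3 in each of 4 groups of line by GCTM-5 staining, was re-analysed. According to the paper, the authors mapped reads to hg19 (GRCh37), and the deposited values are RPKM from QuasR, in which read counts are divided by library size and gene length. The annotation, the use of strand, the treatment of reads that match several genes and the version of QuasR are not given in the sources used here. The submitters' processing notes name bcl2fastq. Library kits differ between the labels (SureSelect, strand-specific) and the paper (TruSeq). So do the secondary antibody (HRP in the labels, Alexa in the paper) and the medium (Iscove's in the labels, RPMI in the paper). Which is right cannot be settled from these sources. The paper tested genes with TCC, which was not used here.

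Genes with a mean of at least 0.1 RPKM (16236 of 23346) were fitted as log2(RPKM + 0.1) in R 4.3.3 with limma 3.58.1, as 4 group means with an intensity trend, and adjusted by the Benjamini-Hochberg method over all genes tested. The scripts were tested on simulated data. Fold changes are on the log2(RPKM + 0.1) scale, which understates the change of low genes. The thresholds of over 2-fold and an unadjusted p under 0.01 are a reading of the study's. Counts at an unadjusted p under 0.05 were taken for the lists only, so no share over all genes stands beside them. Whole reads and library totals were recovered from RPKM through the lengths of single-exon genes, and all 19654 genes above 0 gave whole reads within 0.01 of a read. These served for depth, for bounds against a floor of 3 reads per library, and for voom as an alternative. Intervals, bounds and depths cover counting or sample error only, because PCR copies of a molecule are counted as separate reads.

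The 10 genes, the lists and the tests were chosen with earlier results of these data known. Named genes are the 10 genes, and from each pathway list the 3 highest and 3 lowest log2 fold changes per line among genes called, plus the most similar gene of each of the 10. Some genes that this rule would name are not reported here, though counts over their lists include them. Alternatives were pseudocounts of 1 and 0.01, no filter or a mean of at least 1 RPKM, centring, quantile normalisation, each line alone, a replicate block, no trend, voom, the study's thresholds and each sample left out. Python 3.11.15 with pandas 2.3.3, numpy 2.4.6 and matplotlib 3.10.9 was used. Gene positions are those of GENCODE on GRCh37 and promoters those of RefSeq on GRCh38.p14.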

Additional observations from a re-analysis of the deposited data

Results flagged for a closer look

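The results below were singled out because the change between GCTM-5 positive and negative cells differed between the lines, by limma's test of the difference (change in SW1990 minus change in CFPAC-1, log2 scale, adjusted p under 0.05). Of the 10 integrin subunits these were *ITGB6* (4.41), *ITGB4* (0.95), *ITGA5* (-2.64), *ITGB8* (-1.26) and *ITGAV* (-0.63). Among other integrin subunits they were *ITGB2* (1.40), *ITGB3* (-1.35) and *ITGA11* (-1.43, a gene without reads in positive SW1990 cells). Among ligands, the laminin chains *LAMA3* (2.21) and *LAMB3* (1.66) and tenascin-C, *TNC* (1.80), lay on the side of SW1990, while *SPP1* (-2.53), *VTN* (-1.41), *TGFB1* (-0.91) and *NPNT* (-2.15) lay on the other. *NPNT* had no reads in negative SW1990 cells and *VTN* at most 4 reads per library in CFPAC-1. Among activators, adaptors and related genes the differences were 0.78 for *ACTN4* and 0.56 for *BCAR1*. They were -2.10 for *TNS1*, -2.30 for *LIMS2*, -1.15 for *FERMT2*, -1.10 for *ITGB1BP1* and -1.21 for *FLNA*. *TNS1* had at most 2 reads and *LIMS2* at most 6 reads per library in CFPAC-1. For hemidesmosome genes and lateral partners they were 2.43 for *COL17A1*, 0.85 for *PLEC* and -2.20 for *TSPAN8*, which had 2 to 8 reads per library in positive SW1990 cells.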

How the results depend on the processing

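Of the counts of genes and of the 10 integrin subunits called, 208 values under alternatives were within 1.5 times the count reported and 12 were not. Of the latter, 10 came with the thresholds of over 2-fold and an unadjusted p under 0.01. Genes called were then 1961 in SW1990 (4581 as reported), 1588 in CFPAC-1 (5929), 2301 for the difference between lines (4374), 5993 for the lines in negative cells (11181) and 4627 in positive cells (10113), and of the 10 subunits 3, 0, 3, 5 and 4 were called (6, 6, 5, 9 and 7). With single samples left out, 2 to 6 of the 10 were called in CFPAC-1, 2 without CFPAC-1 negative replicate 3 and 3 without CFPAC-1 positive replicate 1. Over all genes, 2777 were higher and 1588 lower in the former fit and 2851 and 1664 in the latter. For single genes, 1007 values kept their direction and side of the threshold, 61 were weaker, 20 stronger and 12 reversed. The reversed ones were all uncalled values near 0. *ITGA3* in SW1990 was -0.017 with quantile normalisation and -0.086 to 0.081 with single samples left out. *ITGA6* in SW1990 was 0.0074 with centring and -0.10 to 0.024 with samples left out. *ITGAV* in CFPAC-1 was -0.089 to 0.12 with samples left out, -0.11 with centring and -0.10 with quantile normalisation. The difference between lines for *ITGB1* was -0.12 to 0.016 (0.087 with centring), and *ITGA6* between the lines in positive cells was -0.18 to 0.061. *ITGB6* (2.77 to 3.90), *ITGB8* (-2.002 to -1.53) and *ITGA5* (-1.74 to -1.44) stayed called in SW1990 under all 22 alternatives that kept the adjusted p. The cause of these changes was not tested, apart from the higher thresholds and fewer samples themselves.

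Whether same replicate numbers marked paired samples could not be settled, because deviations from means of 3 samples cannot decide it. The correlation of these deviations was 0.18, 0.02 and 0.12 in SW1990 for replicates 1, 2 and 3. For samples with different numbers it was -0.25 to 0.16. In CFPAC-1 it was -0.02, 0.0013 and -0.06 for same numbers and -0.03 to 0.04 for different ones. Not every sample correlated best with its own number. With a replicate block, 4386 genes were called in SW1990, 5729 in CFPAC-1 and 4130 for the difference, and 6, 6 and 5 of the 10 subunits. In SW1990 *ITGA2* was then called (adjusted p = 0.0252) and *ITGB1* was not (adjusted p = 0.0584).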
